A study of Rattus norvegicus with 8 samples.

Results

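Ctrb1, Prss1, Cela1, Cpa1, Cpb1, Pnlip and Cel encode digestive enzymes of the exocrine pancreas, and their signal was followed across 8 Affymetrix arrays of rat peripheral whole blood. The 7 genes, of 14217 named on the array, are measured by 7 probe sets, 1 each, among 31042 tested. They were matched by symbol in the platform annotation, and all 7 matched RefSeq by gene number. Ctrb1 was chosen by its SD over the 8 arrays, the widest of the whole table, and the other 6 as further pancreatic enzyme genes. That SD is therefore a description here and is not tested.

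The male Wistar rats were 7 weeks old when bought and had 1 week of acclimation. Both groups then ate for 8 weeks, either a high-fat diet with 1% mulberry leaf powder (4 arrays) or the high-fat diet alone (4 arrays). Each diet group held 10 rats, and blood was drawn on day 56 after an overnight fast. Arrays are labelled as biological replicates, but which rats each holds, and whether RNA was pooled, is not said, so p-values measure only the spread between these arrays. A normal-diet group was not analysed here. In bulk blood, fewer cells of a type and less RNA per cell cannot be told apart.

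Acinar cells make these enzymes as precursors and release them into the gut, where they are activated. Their genes are switched on together in the pancreas by a shared set of transcription factors, among them the PTF1 complex, which contains Ptf1a and Rbpjl and binds an E-box next to a TC-rich box. Clinical blood tests of the pancreas measure enzyme proteins such as lipase and amylase, not the transcripts. The mean deposited values of the 8 measured erythroid probe sets lay between 8.67 and 15.09 in a table that spans 5.17 to 15.26. Other blood markers reached lower, with 6.15 to 11.10 for neutrophil and 6.08 to 9.19 for B cell probe sets. Duct epithelium probe sets spanned 5.72 to 13.70, so these values alone do not set blood markers apart. No detection calls were used here, so whether any of the 7 enzyme probe sets lies above background is not known.

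The 250 bases before the start of Ctrb1 and of Cela1 are shown because they hold the same E-box and TC-rich box, while the signals of the 2 genes in blood had different patterns over the arrays. The sequences are from RefSeq (GRCr8), 5′ to 3′ on the strand of each gene, and capitals mark the letters CACCTGNNCTTTTCCC. Ctrb1 is at chr19:56566979-56567228, minus strand, and Cela1 at chr7:133665062-133665311, minus strand.
Ctrb1: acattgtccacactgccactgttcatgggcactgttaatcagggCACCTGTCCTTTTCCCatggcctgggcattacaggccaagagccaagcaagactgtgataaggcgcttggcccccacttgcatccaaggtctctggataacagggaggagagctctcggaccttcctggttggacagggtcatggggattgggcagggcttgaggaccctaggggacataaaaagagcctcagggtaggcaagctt
Cela1: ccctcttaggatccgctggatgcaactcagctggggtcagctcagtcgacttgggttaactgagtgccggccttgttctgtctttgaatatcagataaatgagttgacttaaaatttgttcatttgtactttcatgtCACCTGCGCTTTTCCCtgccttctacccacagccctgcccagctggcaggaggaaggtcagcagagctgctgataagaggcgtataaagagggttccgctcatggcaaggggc

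The marked letters began 206 bases before the start in Ctrb1 and 113 bases before it in Cela1. On either strand they occurred in 2 of 33469 RefSeq windows of that length (0.00598%), which are these 2. The letters were chosen after reading the 2 sequences, so this share carries no weight of its own. The looser CACCTGNNNNTTTCCC, which contains the first, occurred in 8 windows (0.0239%). The E-box letters CACCTG alone were in 5 of the 7 enzyme gene windows and in 15.9% of all windows.

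Ctrb1, which encodes the precursor of the protease chymotrypsin B, was high on a single array. On the deposited log2 scale its value was 6.946, 6.155, 6.169 and 6.178 in mulberry replicates 1 to 4, against 6.203, 6.160, 6.169 and 6.169 in high-fat replicates 1 to 4. Mulberry replicate 1 stood above all the others, and the other 3 mulberry arrays lay within the span of the high-fat arrays or just below it. The gap from mulberry replicate 1 to the next array was 0.744, which was 15.7 times the whole range of the 7 other arrays (0.0474). The table's values are compressed between arrays by an unknown amount, with a median SD of 5.31e-06 over all probe sets, so this gap is not read as a fold change.

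**Figure D1:**
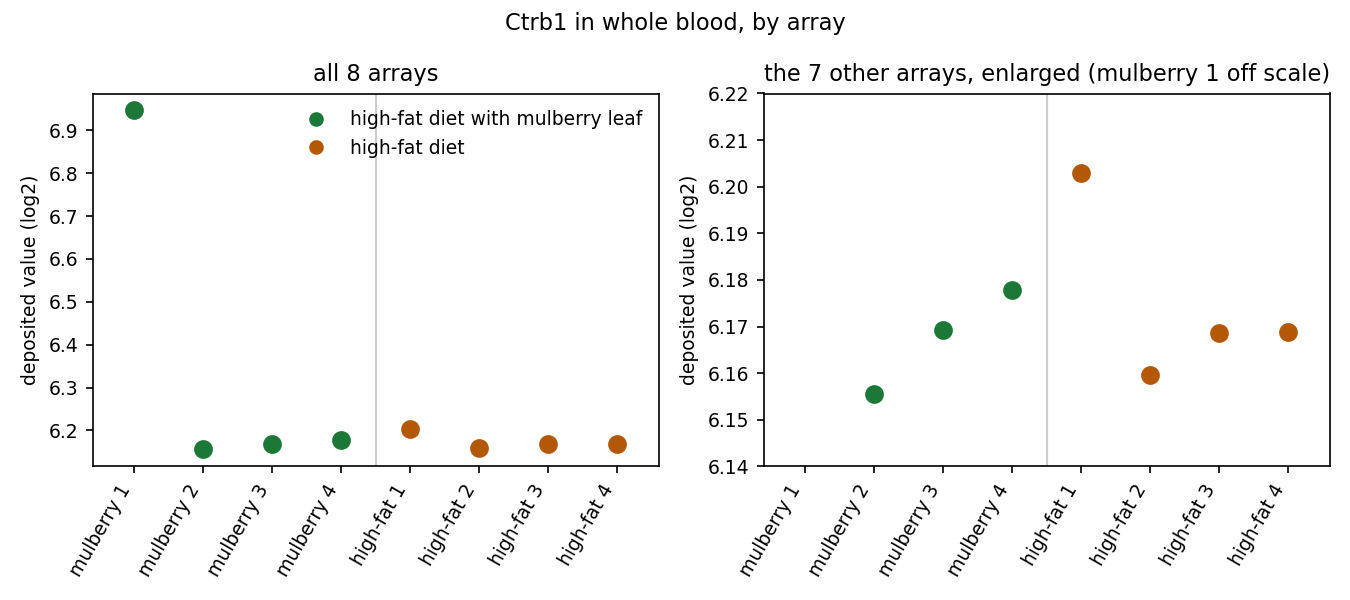
Deposited log2 value of Ctrb1 (vertical axis) on each array (horizontal axis), for all 8 arrays on the left and enlarged for the 7 others on the right. Mulberry replicate 1 is at 6.946, and the 7 other arrays lie between 6.155 and 6.203.

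The SD of Ctrb1 over the 8 arrays was 0.274, followed by 0.152 for Xpo7. Only 18 probe sets had an SD above 0.01. Without mulberry replicate 1 the SD of Ctrb1 was 0.0155, against a median of 5.23e-06 over all probe sets, and its place by SD was 11 instead of 1. Within the 4 high-fat arrays its SD was 0.0191 (place 8), with high-fat replicate 1 the highest. The share of a probe set's range that lies between its highest and second highest array was 0.940 for Ctrb1, the largest in the table. Only N4bp1, the gene of a binding partner of the ubiquitin ligase NEDD4, also exceeded 0.9 (0.903).

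The 6 other enzyme genes barely varied on the deposited scale. Their SDs ran from 7.90e-07 (Cpb1) to 1.35e-05 (Cel), at places 29532 and 6701 of 31042. Their mean deposited values ran from 6.148 (Cpa1) to 7.138 (Cela1). The Ctrb1 peak of 6.946 thus lay below the value of Cela1 on every array, though values of different probe sets do not rank their transcripts. Just outside the choice of Ctrb1 by widest spread stood Xpo7, a nuclear transport receptor gene, at 0.152.

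**Figure D2:**
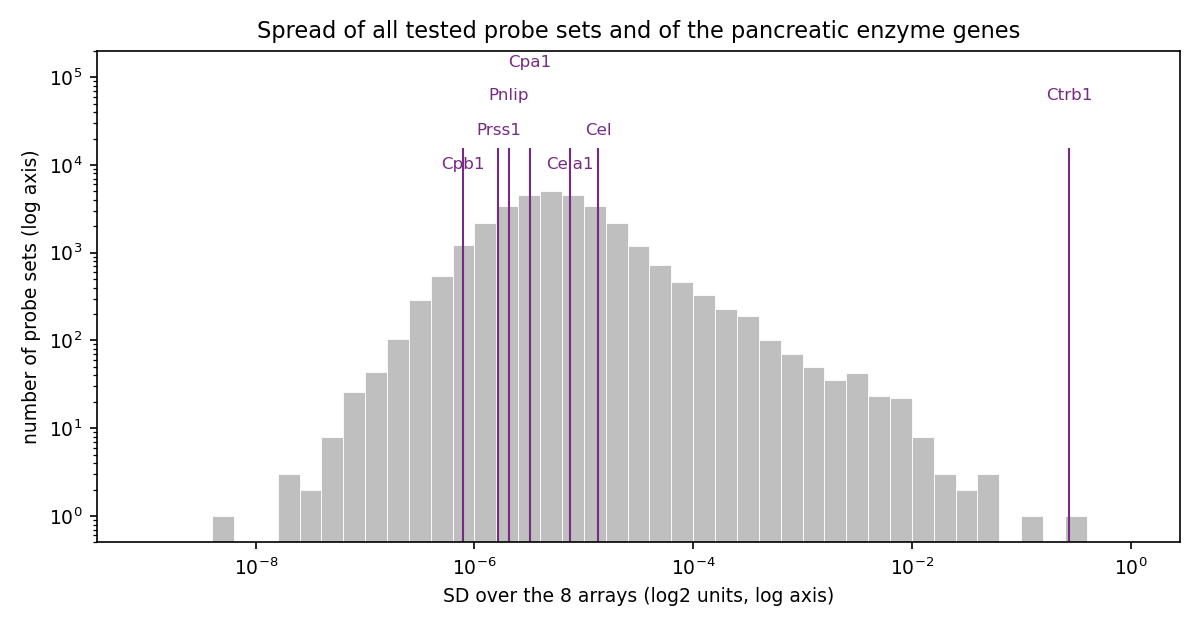
Number of probe sets (vertical log axis) by SD over the 8 arrays in log2 units (horizontal log axis), with the 7 enzyme genes as vertical lines. Ctrb1 lies at the far right at 0.274, and the other 6 fall between 7.90e-07 and 1.35e-05, in the body of the distribution.

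Because of this compression, the 6 genes are described in SD units, the deviation of an array from the gene's mean divided by its SD over the 8 arrays. None of the 6 was highest on mulberry replicate 1, the array of the Ctrb1 peak, while 11.9% of all tested probe sets were. Of the 2 further serine protease genes, Prss1, which encodes a trypsinogen, was at 1.05, -1.20, 0.951 and -1.11 SD units in mulberry replicates 1 to 4, against -0.166, -0.252, 1.36 and -0.633 in high-fat replicates 1 to 4. Its highest array was high-fat replicate 3, with mulberry replicates 1 and 3 next. Cela1, an elastase gene, was at 0.0504, 0.807, 0.483 and 1.26 in the mulberry arrays, against 0.761, -1.40, -0.795 and -1.17 in the high-fat arrays. Only high-fat replicate 1 reached into the span of the mulberry arrays.

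The carboxypeptidase genes, whose enzymes trim peptides from the carboxyl end, peaked elsewhere. Cpa1 was at 0.842, -0.950, 0.262 and 0.828 SD units in mulberry replicates 1 to 4, against 0.159, -0.390, 1.07 and -1.82 in high-fat replicates 1 to 4. The diets overlapped throughout, with high-fat replicates 3 and 4 at the 2 ends. Cpb1 was at -0.478, -0.470, 2.39 and -0.821 in the mulberry arrays, against -0.336, 0.00459, -0.204 and -0.0865 in the high-fat arrays. Like Ctrb1 it was high on a single mulberry array, but on replicate 3 and not on replicate 1, and over a range of only 2.54e-06.

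Pnlip encodes the main triglyceride lipase of the pancreas, and Cel a lipase that acts on cholesterol esters in the presence of bile salts. Pnlip was at 0.296, 0.623, 0.716 and 0.780 SD units in mulberry replicates 1 to 4, against -1.84, 0.195, -1.30 and 0.531 in high-fat replicates 1 to 4. High-fat replicates 1 and 3 were low, and high-fat replicate 4 lay above mulberry replicate 1. Cel was at 0.973, -0.363, 1.57 and 0.262 in the mulberry arrays, against -0.0776, -1.79, -0.332 and -0.243 in the high-fat arrays. Mulberry replicates 3 and 1 were the highest, and high-fat replicate 2 was low by itself.

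**Figure D3:**
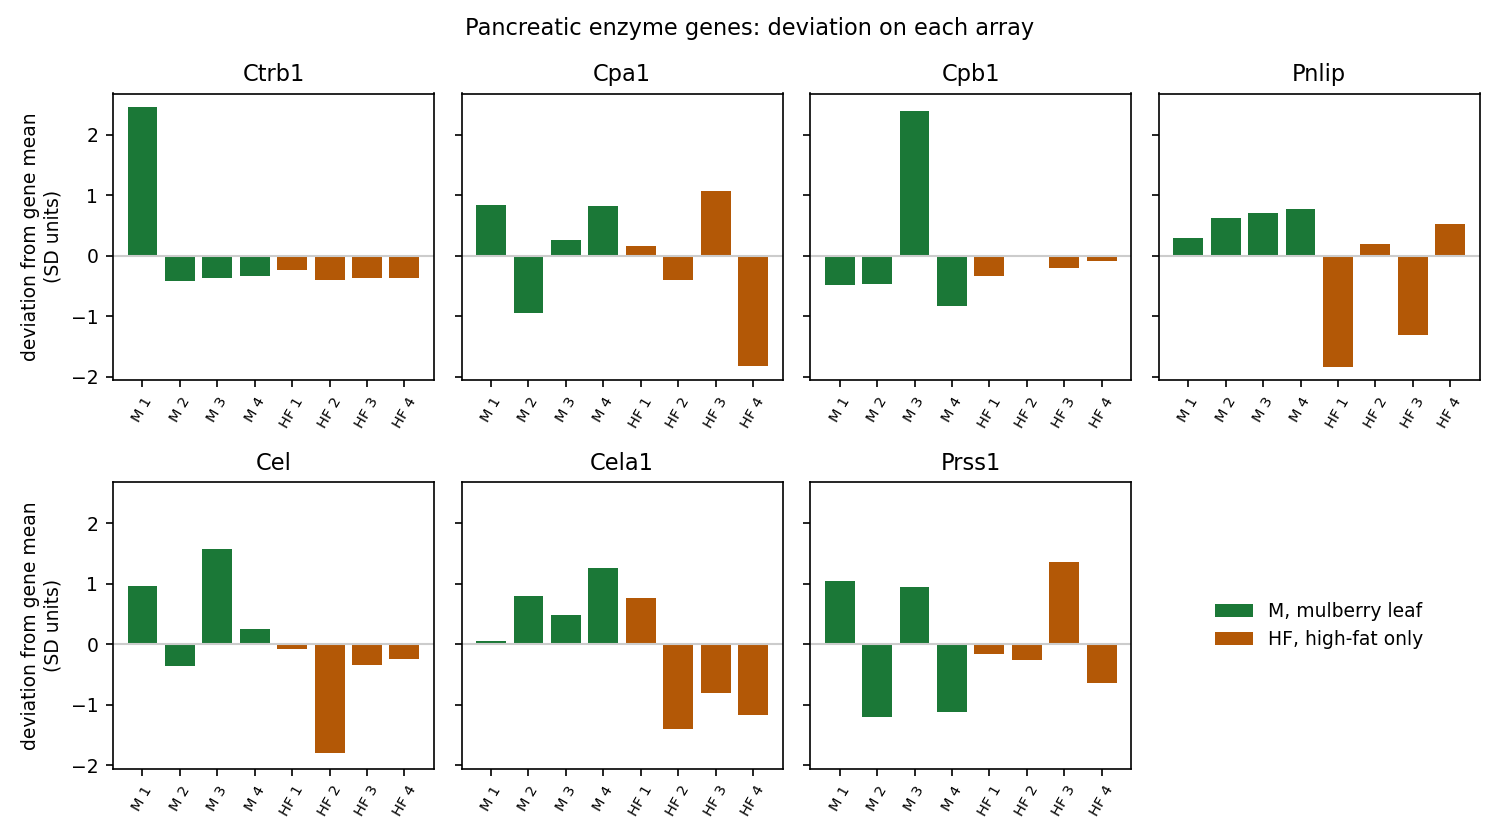
Deviation from the gene's mean in SD units (vertical axis) on each array (horizontal axis), a panel per gene, with M for the mulberry arrays and HF for the high-fat arrays. Ctrb1 reaches 2.47 on mulberry replicate 1 and Cpb1 2.39 on mulberry replicate 3, and no other gene has its highest bar on mulberry replicate 1.

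Mulberry replicate 1 was the second highest array for Cpa1, Cel and Prss1, the fifth for Pnlip and Cela1 and the seventh for Cpb1. The mean deviation of the 6 genes was 0.455 there, the second highest of the 8 arrays, with the mulberry arrays between -0.258 and 1.06 and the high-fat arrays between -0.606 and -0.0340. As Ctrb1 splits the arrays into 1 and 7, no correlation over all 8 is given for the enzyme genes. Over the 7 other arrays, the Pearson r with Ctrb1 ran from -0.644 (Pnlip) to 0.40 (Cela1). The smallest exact permutation p was 0.129, and every adjusted p was 1.00 over 31038 relations. Spearman's rho was 0.821 for Cel (exact permutation p = 0.0341, adjusted p = 1; 903 of the 31038 relations had a Spearman p under 0.05), where Pearson's r was 0.270 (exact permutation p = 0.474), and between -0.143 and 0.357 for the 5 others. Without the 2 arrays farthest from the Ctrb1 median, high-fat replicate 1 and mulberry replicate 2, r was 0.371 for Cpa1, -0.196 for Cpb1, 0.261 for Pnlip, 0.632 for Cel, 0.836 for Cela1 and -0.274 for Prss1 (5 arrays). The smallest p that the orders of 7 arrays allow is 2.0e-04, so an adjusted p under 0.05 would need at least 124 relations at that p. The adjusted values therefore do not show whether a single gene followed Ctrb1.

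A list of 48 other exocrine pancreas genes had 33 measured, by 38 probe sets, all of narrow spread (SD from 6.55e-07 to 1.54e-05). Not all of them are particular to that tissue, Cpb2, Gata4 and Nr5a2 among them. Their mean deviation on mulberry replicate 1 was -0.442, the lowest of the 8 arrays. The mulberry arrays ran from -0.442 to 0.414 and the high-fat arrays from -0.406 to 0.570. Of the 38, 2 were highest on that array (5.26%, against 11.9% of all probe sets), the amylase gene Amy2a3 (1.21) and Erp27 (1.52), an endoplasmic reticulum protein gene, both named after their values were seen. Ctrl, a chymotrypsin-like protease gene, was at -1.85 there, and Ctrc, the chymotrypsin C gene, at 1.07, and these were likewise named after their values were seen. The widest probe sets of the list were Cela3b, Aqp12a, Pla2g1b, Dnase1 and Prss2, which were at 0.268, 0.154, 0.186, -1.41 and -0.891.

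The marker lists of islets, ducts and liver did not peak on mulberry replicate 1. The 13 islet probe sets averaged -0.414 there, the 8 duct probe sets -0.395 and the 14 liver probe sets -0.484. Islet, liver and other exocrine means were all highest on mulberry replicates 2 and 3 and high-fat replicate 3. The low exocrine mean on mulberry replicate 1 is therefore not particular to exocrine genes. The insulin gene Ins1 was at -0.445 and the somatostatin gene Sst at -0.341. The 2 probe sets of Car2, a carbonic anhydrase gene that red cells also use heavily, were at -1.25 and -2.10, the lowest of the 8 arrays in both. They belong to the duct list and pull its mean down. The median of the duct probe sets was -0.323 on mulberry replicate 1, and the highest was at 1.11.

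Several array-wide measures did stand at an end on mulberry replicate 1, and their part in the Ctrb1 value was not tested. Spiked hybridization controls averaged 1.30 SD units there, against a range of -1.44 to 0.695 on the 7 other arrays, and spiked polyA controls 1.23, against -1.31 to 0.946. The widest SD of a spiked control probe set was 4.04e-04 on the deposited scale. The 3′ minus 5′ difference of control probe sets, a measure of RNA integrity, was the lowest of the 8 arrays for both Gapdh (-0.964) and beta-actin (-2.0). A low value means less excess of 3′ signal. The SD of this difference was only 1.87e-05 for Gapdh and 6.57e-05 for beta-actin on the deposited scale. The next lowest was close for Gapdh (-0.925, high-fat replicate 4) but not for beta-actin (-0.635, high-fat replicate 2). Erythroid markers (0.609) and neutrophil markers (0.682) had their highest mean there, but other arrays were close. High-fat replicate 3 had 0.593 for erythroid markers, and high-fat replicate 4 had 0.572 for neutrophil markers. On mulberry replicate 1, 5 of 8 erythroid and 2 of 11 neutrophil probe sets were at their highest (62.5% and 18.2%, against 11.9% of all probe sets). The lists were not uniform, since the erythroid genes Ahsp and Epb42, the widest of theirs, were at -0.944 and -0.127 and the lowest neutrophil probe set at -1.70. Means of the other blood lists there were 0.377 for monocytes, -0.00368 for T cells, -0.338 for natural killer cells, -0.525 for B cells and -0.719 for platelets. In all, 126 probe sets were highest on that array with a gap to the next array beyond the Dixon limit for 8 values, compared with 71 to 242 on each of the 7 others.

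**Figure D4:**
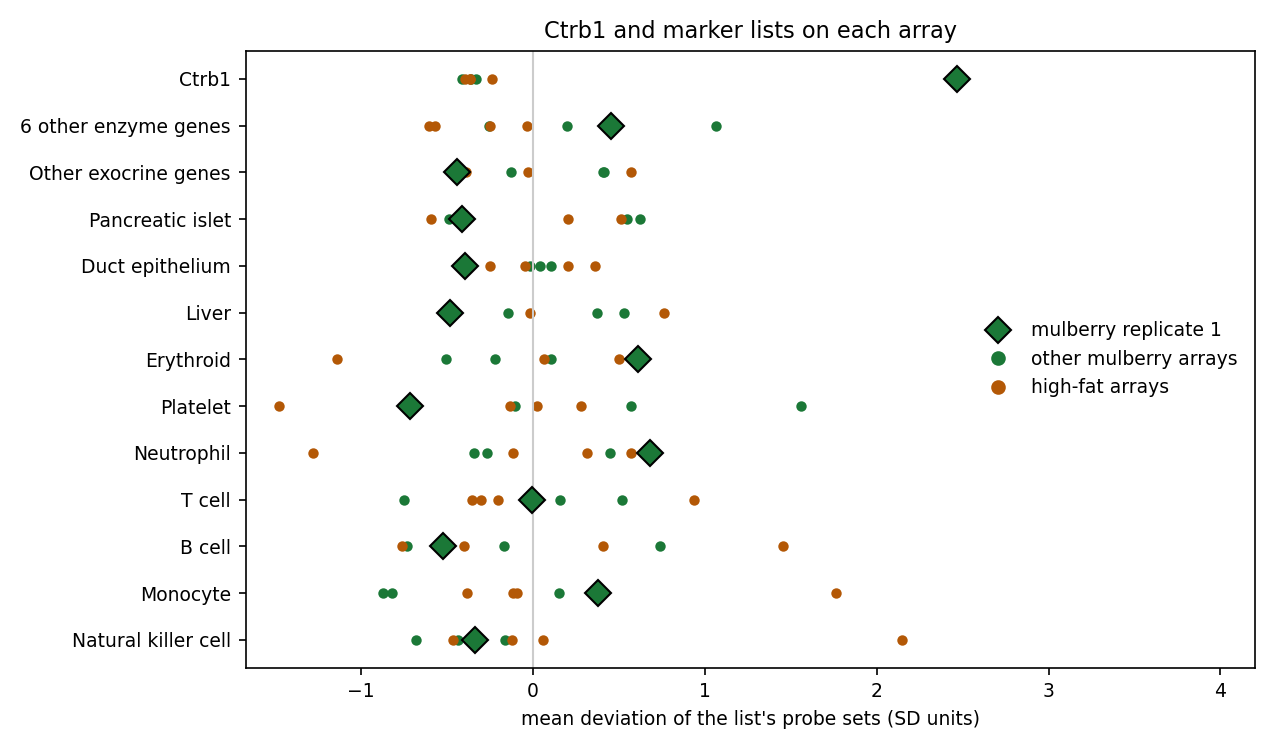
Mean deviation in SD units (horizontal axis) of Ctrb1, the 6 other enzyme genes and each marker list (rows) on the 8 arrays, with mulberry replicate 1 as a diamond. Ctrb1 is at 2.47 on that array, and the other exocrine genes are at -0.442, their lowest. The liver list is at -0.484 there and the islet list at -0.414.

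The named genes whose pattern was most like that of Ctrb1 were outside the pancreatic lists. By Pearson r over the 8 arrays, which here measures mostly how far mulberry replicate 1 stands from the rest and is given without a test, the first 10 named genes were N4bp1, C17h5orf24, Trim3, Phf19, Evi5, Thbs2, Tiam1, Arid1a, Hcfc1r1 and Mideas, with r from 0.947 to 0.992. None of them was in any of the 11 lists. The lists hold few of the 20826 single-gene probe sets, so this carries little weight. For 9 of the 10 the SD was between 3.34e-06 and 2.27e-05. Evi5, a regulator of cell division and membrane traffic, was the exception (SD 0.00262), at 8.007 on mulberry replicate 1 against 7.998 to 8.001 on the 7 others. The closest of the 6 other enzyme genes came at place 4392 by r among the 31041 other probe sets. The closest of the other exocrine probe sets came at place 1395. Neither place was compared with chance.

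The diet comparison asks whether eating mulberry leaf altered these transcripts in blood. Each difference is mulberry minus high-fat in SD units ± SE from limma over all probe sets. No enzyme gene passed the threshold of 0.05 after Benjamini-Hochberg adjustment (0 of 7, with 0% of all 31042 probe sets passing), and each adjusted p was 1. By unadjusted p, 1 of the 7 was under 0.05, compared with 4.36% of all probe sets. In no gene did the diets fail to overlap, as they did in 2.52% of all probe sets. The mean was higher with mulberry in 6 of 7 genes (52.7% of all probe sets). The median difference of the 7 was the value of Ctrb1 itself, 0.683 SD units. It was 0.849 for the 6 other genes, against 0.0560 over all probe sets. Ctrb1, Cpa1, Cpb1 and Prss1 each changed sign when a single array was left out. Neither the count nor the median was tested, so they are not read as a shift of the enzyme genes.

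Ctrb1 averaged 6.362 ± 0.390 in the mulberry arrays and 6.175 ± 0.0191 in the high-fat arrays (SD, n = 4 each), a difference of 0.683 ± 0.668 SD units (limma adjusted p = 1, two-sided exact permutation p = 0.657). Without mulberry replicate 1 the mulberry mean was 6.168 ± 0.0113 (SD, n = 3) and the difference turned to -0.475 ± 0.752. The direction for Ctrb1 therefore rested on that array. Only 2 of the 4 mulberry arrays lay above the high-fat mean.

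Among the other protease genes, Cela1 differed by 1.30 ± 0.524 SD units, with 4 of 4 mulberry arrays above the high-fat mean (limma unadjusted p = 0.0432, adjusted p = 1, exact permutation p = 0.0857), and by 0.784 ± 0.671 with quantile normalization (limma unadjusted p = 0.284). Prss1 differed by -0.153 ± 0.822 (adjusted p = 1), which turned to 0.707 with quantile normalization, to 1.16 with median centring, and above 0 without mulberry replicate 2 (0.232), mulberry replicate 4 (0.198) or high-fat replicate 3 (0.303). Cpa1 differed by 0.491 ± 0.724 and Cpb1 by 0.311 ± 1.10, both 0 after quantile normalization. Median centring gave 1.20 ± 0.602 for Cpa1 and 1.16 ± 0.611 for Cpb1 (limma adjusted p = 0.162 each). Cpb1 turned to -1.55 without mulberry replicate 3, and Cpa1 to -0.0464 without high-fat replicate 4. On the deposited values the differences of Prss1, Cpa1 and Cpb1 were smaller than their standard errors, but with median centring all 3 exceeded them, as did Prss1 with quantile normalization. Array medians differed by up to 9.36e-05, and neighbouring quantile values lie 6.17e-05 apart in the median. Both are wider than the SD of each of these genes. These settings therefore replace their small differences by construction.

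The lipase genes had higher means with mulberry that did not pass the test. Cel differed by 1.22 ± 0.546 SD units, with 4 of 4 mulberry arrays above the high-fat mean (limma unadjusted p = 0.0613, adjusted p = 1, exact permutation p = 0.114). The Cel difference was 0 after quantile normalization and 1.37 ± 0.516 with median centring (limma unadjusted p = 0.0257, adjusted p = 0.162). With the replicate block it was 1.22 ± 0.270 (limma unadjusted p = 0.0120, adjusted p = 0.869). Pnlip differed by 1.21 ± 0.636, also with 4 of 4 above (adjusted p = 1, exact permutation p = 0.0571). The Pnlip difference turned to -0.707 after quantile normalization and was 1.23 ± 0.595 with median centring. Quantile normalization and median centring replace differences this small by construction. With 4 arrays against 4, the smallest exact permutation p is 0.0286.

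**Figure D5:**
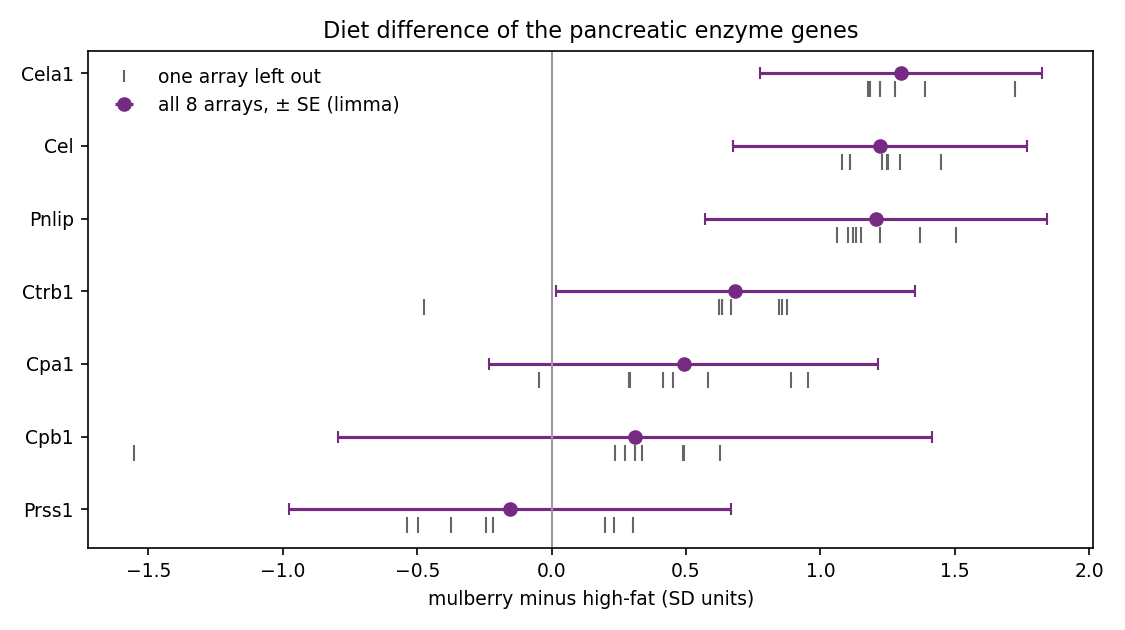
Mulberry minus high-fat difference in SD units (horizontal axis) for each enzyme gene, with the limma SE as bars and ticks for the value with each array left out. Cela1, Cel and Pnlip stay above 0 in every case, and Ctrb1 crosses to -0.475 without mulberry replicate 1.

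The other exocrine genes gave no call in the diet fit (0 of 38, and 0 with an unadjusted limma p under 0.05, against 4.36% of all probe sets). Means were higher with mulberry in 20 and lower in 18, with a median difference of 0.0245 SD units. The genes of smallest p were Sycn (1.36 ± 0.617), which encodes a zymogen granule protein, Ptf1a (1.24 ± 0.586), Aqp12a (1.06 ± 0.593), an aquaporin gene, Pnliprp1 (-1.03 ± 0.704), a relative of Pnlip, and Prss3b (-0.794 ± 0.656), of the trypsinogen family. Each had an adjusted p of 1. None of the 10 further lists gave a call either (0 probe sets in each).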

How the data were processed

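Per the labels, RNA from blood was isolated with TRIzol LS, purified with an RNeasy kit and labelled (200 ng) with the GeneChip 3′ IVT Express kit. The authors deposited 1 table of 31099 probe sets by 8 arrays, whose values are read as log2 from their range. How they were summarised and normalised is not stated in the sources used here, nor are batches or scan dates. Left out of tests were 57 manufacturer controls. Of 31042 probe sets, 20826 named 1 gene, 436 several and 9780 were unnamed here, and only the first kind was named.

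The diets were compared with limma 3.58.1 in R 4.3.3 (lmFit, eBayes, two-sided, no covariate), adjusted over all probe sets. On simulated normal data, the fit called 44% of probe sets moved by 4 within-diet SDs and 90% of those moved by 8. Smaller shifts were not simulated, so the absence of calls does not exclude them. Exact permutation tests used all 70 assignments, or all 5040 orders for correlations over 7 arrays (Python 3.11.15, scipy 1.17.1). With 4 arrays a diet, precision is low. The enzyme genes and the 11 marker lists were chosen with earlier results of these data known. Further genes named were the 10 most like Ctrb1 by r, the widest by SD, and, in the exocrine list, the 5 widest and the 5 of smallest p. From the other lists only some of the 2 widest are named. Alternatives were quantile normalization, median centring, a replicate block, eBayes with trend, a filter on dim probe sets, rank correlation and leaving out each array.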

Additional observations from a re-analysis of the deposited data

Results flagged for a closer look

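An array stood apart within its diet where its gap to the nearest neighbour, as a share of the range of the 4 arrays, exceeded the Dixon limit for 4 values. For Ctrb1, mulberry replicate 1 was highest with a gap share of 0.972, which follows from the choice of Ctrb1 by its wide SD and is given as a description. Among the 12 sets of the 6 other genes, 2 held such an array. For normally distributed values the limit gives about 1 set in 20 (0.05). The share over all probe sets here is not given, so the 2 are not read as an excess. For Cpb1, mulberry replicate 3 was highest with 0.891, over a range of 2.54e-06 on the deposited scale. For Cel, high-fat replicate 2 was lowest with 0.852.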

How the results depend on the processing

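With each array left out in turn, the difference ran from -0.475 to 0.877 SD units for Ctrb1, from -0.0464 to 0.954 for Cpa1, from -1.55 to 0.625 for Cpb1 and from -0.540 to 0.303 for Prss1. It stayed positive for Cela1 (1.18 to 1.72), Cel (1.08 to 1.45) and Pnlip (1.06 to 1.5). The place of Ctrb1 by SD ran from 1 to 11, leaving 1 only without mulberry replicate 1. The number of the 6 other genes highest on the array of the Ctrb1 peak ran from 0 to 2, with 1 when mulberry replicate 3 and 2 when high-fat replicate 3 was left out. Quantile normalization gave -0.707 for Pnlip and 0.707 for Prss1, and median centring 1.16 for Prss1. The highest r of another enzyme gene with Ctrb1 over the 7 other arrays, 0.40, turned to -0.115 after median centring and ran from 0.317 to 0.662 with a further array left out, the highest without mulberry replicate 2. Array medians differed by up to 9.36e-05, and neighbouring quantile values lie 6.17e-05 apart in the median, both wider than the SD of each of the 6 genes, so these settings replace their small differences by construction. No setting called an enzyme gene. Quantile normalization called 12 of all 31042 probe sets, and each of the other limma settings called 0. The dim filter removed Cpa1, which has no value there.

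The replicate numbers are not shown to pair the arrays (correlations of deviations -0.0454, -0.0491, 0.239 and 0.155 for replicates 1 to 4). With the replicate block the Ctrb1 difference stayed at 0.683, and 0 probe sets were called (1728 with unadjusted limma p under 0.05, against 1352 without it). Signal over background was not used here.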

Other observations

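The other named probe sets of widest spread peaked on several arrays. Xpo7 and Tmcc2, both late erythroid genes, were highest on high-fat replicate 1 (8.727 and 11.022, deposited log2 values), and Fcgr3a, Clec4a3, Gzmb and Mpeg1, of myeloid and cytotoxic cells, on high-fat replicate 4. On mulberry replicate 1, where Ctrb1 peaked, 2 of them were also highest. RT1-Bb, an MHC class II chain gene, had 6.061 and 6.057 in mulberry replicates 1 and 3 and 5.999 and 5.995 in mulberry replicates 2 and 4, against 5.996 to 6.0 in the high-fat arrays, so that 2 mulberry arrays stood apart. Sv2b, a synaptic vesicle protein gene, had 8.149 on mulberry replicate 1 and up to 8.129 on the others. Ldhb, a lactate dehydrogenase gene, went another way, with 6.956 on mulberry replicate 1, near the high-fat arrays (6.950 to 6.983) and above the other 3 mulberry arrays (6.857 to 6.865). Its diet difference was -1.44 ± 0.457 SD units (limma adjusted p = 1).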
